A study of Mus musculus with 6 samples.

Results

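Transcripts of growth factor receptor tyrosine kinases were examined in cultured muscle stem cells (MuSCs) of the mouse. The members are the HGF receptor gene Met, the ERBB family genes Egfr, Erbb2 and Erbb3, the PDGF receptor genes Pdgfra and Pdgfrb, their relative Kit, the collagen receptor genes Ddr1 and Ddr2, and the TAM family gene Axl. They were chosen by gene symbol, and 9 of the 10 have a row among the 18943 genes of the table used here. Kit has no row and was not analysed here.

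MuSCs are the cells under the basal lamina of muscle fibres that repair and rebuild muscle. All libraries came from wild-type C57BL/6 mice, labelled 8 weeks old, whose MuSCs were purified by FACS and cultured for 5 days. The control group received the solvent DMSO, and the treated groups received endothelin-3 (ET-3) or neurotensin (NT), peptide ligands of G-protein-coupled receptors, each labelled 100 nM. The paper's methods name other, higher concentrations of the peptides. Each group has 2 libraries, and the labels do not state whether they came from separate animals or cultures. The paper speaks of biological samples without saying more for these libraries. The p-values therefore measure only the spread between these libraries, which may be technical.

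Receptor tyrosine kinases span the cell membrane, bind a secreted or matrix ligand outside the cell, and switch on kinase activity inside it, from which RAS-ERK, PI3K and STAT signals run. In muscle, HGF acting on MET is a known trigger of MuSC activation, neuregulins signal through ERBB3 paired with ERBB2, PDGFRA and PDGFRB are widely used to mark fibroadipogenic cells and pericytes, DDR1 and DDR2 sense fibrillar and other collagens, and AXL is activated by GAS6. ERBB3 has little kinase activity of its own, and ERBB2 has no known soluble ligand, so each depends on a partner.

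The values are reads per gene multiplied by 1 factor per library, and they sum to between 4214458 and 4600575 per library. The reads on genes recovered from these factors numbered 3628982 to 5396233. A value of 100 then carries a counting error of 8.84% to 10.9%. The 2 ET-3 libraries differed from each other by no more than sampling noise, the chi-square averaged over genes being 0.888, and the same held for the 2 NT libraries at 0.941, whereas the DMSO libraries gave 1.44. The treated libraries were kept as separate samples, and the results with each treated pair counted as 1 sample are given beside them. The myogenic genes Pax7, Myf5 and Myod1 were present in every library. Pax7 stood at 857 and 1070 in DMSO, 1754 and 1730 in ET-3, and 1653 and 1599 in NT. In the same order, Myf5 stood at 506 and 466, 483 and 434, and 408 and 400. Myod1 stood at 1324 and 1444, 1539 and 1449, and 1192 and 1100. Of 8 tested genes of the stem and precursor list, the test given below called 0 higher and 2 lower under each peptide. Among all tested genes it called 6.62% higher and 14.9% lower under ET-3, and 7.3% and 13.2% under NT. The summed value of 10 genes of differentiated myocytes was 14464 to 16078 in DMSO, 454 to 484 in ET-3 and 338 to 465 in NT, and all 10 were called lower under each peptide by the test given below. The part of these myocyte transcripts in the changes of the receptor genes was not tested. In such bulk libraries, fewer cells of a type and less RNA per cell cannot be told apart.

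The receptor genes did not move together (see the plot of values by library). Met and Egfr rose more than 2-fold under both peptides, and Axl rose by less than 2-fold. Transcripts of Erbb3 and Pdgfrb fell 15.0-fold to 56.4-fold on the scale of log2(value + 1), on which all fold changes are given and which understates those of low genes. Erbb2 fell about 2-fold, Ddr1 fell by less, and Ddr2 and Pdgfra lay close to or short of the threshold of the test. With the call set at 2-fold or more and an adjusted p no higher than 0.05, limma called 5 of the 9 receptor genes under ET-3, 2 higher and 3 lower, where 21.5% of the 13921 tested genes were called (6.62% higher and 14.9% lower). Under NT it called the same 5 genes in the same directions, where 20.5% of all tested genes were called (7.3% higher and 13.2% lower). Both comparisons use the same DMSO libraries. With each treated pair counted as 1 sample, these 5 genes stayed called in both comparisons, with limma adjusted p from 0.0221 to 0.0353. The median log2 fold change of the 9 genes was -0.14 under ET-3 and -0.15 under NT, beside -0.01 and -0.01 over all tested genes.

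**Figure D1:**
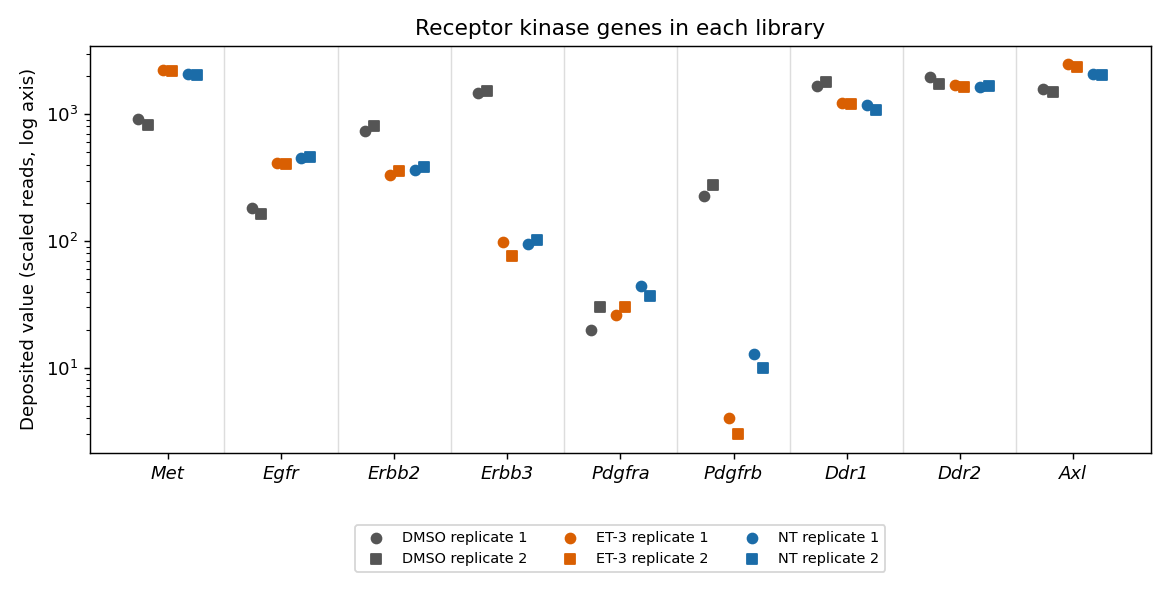
Deposited value (reads scaled by 1 factor per library, log axis) of the 9 receptor kinase genes in each of the 6 libraries, with circles for replicate 1 and squares for replicate 2. Met and Egfr lie higher in all 4 treated libraries than in DMSO, Erbb2, Erbb3, Pdgfrb and Ddr1 lie lower, and Pdgfra overlaps between DMSO and ET-3.

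Met (ENSMUSG00000009376, chr6:17463800-17573980 on the plus strand, GRCm38) encodes the receptor of hepatocyte growth factor. Its value was 917 and 817 in the DMSO libraries, 2234 and 2171 in ET-3, and 2080 and 2017 in NT. Every treated library lay above both controls, and the means were 867.0 ± 70.7 (SD, n = 2), 2202.5 ± 44.5 and 2048.5 ± 44.5. On the log2 scale Met rose by 1.35 under ET-3 (SE 0.06, limma adjusted p = 2.83e-08) and by 1.24 under NT (SE 0.06, limma adjusted p = 5.29e-08), or 2.54-fold and 2.36-fold. The 2 peptides were not told apart, with a log2 difference of NT from ET-3 of -0.10 (95% interval -0.23 to 0.02, limma adjusted p = 0.337).

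Among the ERBB family, Egfr moved opposite to its partners. Egfr (ENSMUSG00000020122, chr11:16752203-16918158, plus strand) encodes the receptor of EGF, TGF-alpha, amphiregulin and HB-EGF. It stood at 182 and 164 in DMSO, 410 and 406 in ET-3, and 449 and 458 in NT. The treated libraries lay apart from the controls, with log2 fold changes of 1.23 (SE 0.07, limma adjusted p = 1.69e-07) and 1.39 (SE 0.07, limma adjusted p = 8.49e-08).

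Erbb2 (ENSMUSG00000062312, chr11:98412470-98437716, plus strand), the partner with no known soluble ligand, went the other way. Its values were 733 and 802 in DMSO, 331 and 354 in ET-3, and 363 and 385 in NT. It fell by 1.16 on the log2 scale under ET-3 (SE 0.06, limma adjusted p = 1.93e-07) and by 1.03 under NT (SE 0.06, limma adjusted p = 4.69e-07). The NT value sits at the 2-fold threshold, and it was -0.92 with libraries scaled to their totals, -0.97 without the second DMSO library and -0.99 without the first NT library, which ended the 2-fold call while the adjusted p still passed.

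Erbb3 (ENSMUSG00000018166, chr10:128567523-128589652, minus strand), the neuregulin receptor, showed the lowest adjusted p of the 9 genes. Its values were 1458 and 1519 in DMSO against 98 and 76 in ET-3 and 95 and 102 in NT. The controls and the treated libraries lay far apart, 17.1-fold lower in ET-3 (log2 fold change -4.09, SE 0.11, limma adjusted p = 2.53e-09) and 15.0-fold lower in NT (log2 fold change -3.90, SE 0.11, limma adjusted p = 3.70e-09). Erbb4, the remaining gene of the family, has no row. Per kilobase of exon, Erbb3 stood at 15.1 and 17.4 times Egfr in the 2 DMSO libraries, at 0.45 and 0.352 times in ET-3, and at 0.398 and 0.419 times in NT. Erbb3 is also high in Schwann cells, whose 6 listed marker genes with a row summed to 281 to 321 in DMSO, 695 to 714 in ET-3 and 715 to 786 in NT. Most of that sum in the treated libraries was Ngfr (93 and 115 in DMSO, 591 to 644 in the treated libraries). Of the 4 tested genes of the list, limma called 1 higher and 2 lower under ET-3 (median log2 fold change -0.73) and 1 higher and 0 lower under NT (median -0.11). Among all tested genes, 6.62% were called higher and 14.9% lower under ET-3, and 7.3% and 13.2% under NT. The medians of all tested genes were -0.01 and -0.01. Cnp went from 121 and 137 to 73 and 51 in ET-3 and 69 and 73 in NT, a fall that passed the adjusted p under both peptides but reached 2-fold in ET-3 only. Foxd3 was at 0 to 2 in every library and Sox10 has no row.

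The PDGF receptors separated by gene. Pdgfrb (ENSMUSG00000024620, chr18:61045150-61085061, plus strand) binds PDGF-BB and PDGF-DD and had the largest fold change of the 9 genes. It was listed at 227 and 278 in DMSO, 4 and 3 in ET-3, and 13 and 10 in NT. Both treated groups lay far below the controls, with log2 fold changes of -5.82 (SE 0.27, limma adjusted p = 6.23e-08) and -4.35 (SE 0.27, limma adjusted p = 5.01e-07). In recovered reads, 474 in DMSO stood against 6 in ET-3 and 28 in NT. The ratio per scaled library was 73.35 for DMSO over ET-3 (95% interval 33.45 to 200.9, counting error only) and 21.95 for DMSO over NT (14.99 to 33.39). Genes of pericytes and smooth muscle fell beside it, their summed value going from 4196 to 4754 in DMSO to 1028 to 1068 in ET-3 and 1119 to 1196 in NT. Of the 5 tested genes, 4 were called lower under each peptide, where 14.9% and 13.2% of all tested genes were. Within that list Rgs5 went from 117 and 150 to between 2 and 5, and Abcc9 from 851 and 835 to between 0 and 4, whereas Kcnj8 was at 0 to 2 in every library. Most of the summed value came from other genes of the list. The part of pericyte genes in the change of Pdgfrb was not tested.

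Pdgfra (ENSMUSG00000029231, chr5:75152292-75198215, plus strand), the receptor of PDGF-AA and a common marker of fibroadipogenic cells, was low throughout. It stood at 20 and 30 in DMSO, 26 and 30 in ET-3, and 44 and 37 in NT. ET-3 and DMSO overlapped, with a log2 fold change of 0.18 (95% interval -0.40 to 0.76, limma adjusted p = 0.567) that was -0.10 without the first DMSO library and 0.46 without the second. The NT libraries lay above the controls, at 0.70 (SE 0.26, limma adjusted p = 0.0397), and that adjusted p passed 0.05 in 8 of 16 alternative analyses. The fibroadipogenic list, which leaves out Pdgfra itself, summed to 336 to 369 in DMSO, 108 to 116 in ET-3 and 118 to 128 in NT. Its first gene Dcn, too low to be tested, was at 9 and 17, 0 and 2, and 0 in both NT libraries. Of the list's 5 tested genes, 4 were called lower under each peptide, and 1 passed the adjusted p with a higher value. Over all tested genes, 14.9% under ET-3 and 13.2% under NT were called lower. The exons of Pdgfra share 652 bases with 3 other annotated genes, of which 30 bases are a microRNA on the same strand.

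Of the collagen receptors, Ddr1 (ENSMUSG00000003534, chr17:35681567-35704621, minus strand) fell and Ddr2 (ENSMUSG00000026674, chr1:169972307-170110762, minus strand) was nearly level. Ddr1 had 1680 and 1800 in DMSO, 1218 and 1205 in ET-3, and 1182 and 1082 in NT. The groups did not overlap, and its log2 fold changes were -0.52 (SE 0.05, limma adjusted p = 1.60e-05) and -0.62 (SE 0.05, limma adjusted p = 4.95e-06). Ddr2 had 1973 and 1722 in DMSO, 1705 and 1651 in ET-3, and 1650 and 1667 in NT. The Ddr2 change was -0.14 on the log2 scale under ET-3 (95% interval -0.27 to -0.00, limma adjusted p = 0.0720) and -0.15 under NT (95% interval -0.29 to -0.02, limma adjusted p = 0.0485), and with libraries scaled to their totals the NT adjusted p was 0.583. Ddr2 exons share 90 bases with the antisense gene 3110045C21Rik and Ddr1 exons share 216 bases with the antisense gene Gm4577.

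Axl (ENSMUSG00000002602, chr7:25757273-25788705, minus strand), the GAS6 receptor, rose under both peptides without reaching 2-fold. Its values were 1566 and 1493 in DMSO, 2465 and 2354 in ET-3, and 2066 and 2025 in NT. The 3 groups did not overlap, with ET-3 highest. On the log2 scale Axl rose by 0.66 under ET-3 (SE 0.04, limma adjusted p = 8.33e-07) and by 0.42 under NT (SE 0.04, limma adjusted p = 2.09e-05). The other TAM genes were lower in level. Tyro3 rose by less than 2-fold, from 117 and 137 to 178 and 167 in ET-3 and 190 and 205 in NT (log2 fold changes 0.44 and 0.64, limma adjusted p = 0.00372 and 0.00040). Mertk stood at 47 and 56, 37 and 42, and 41 and 40, and its changes did not pass (limma adjusted p = 0.122 and 0.164).

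**Figure D2:**
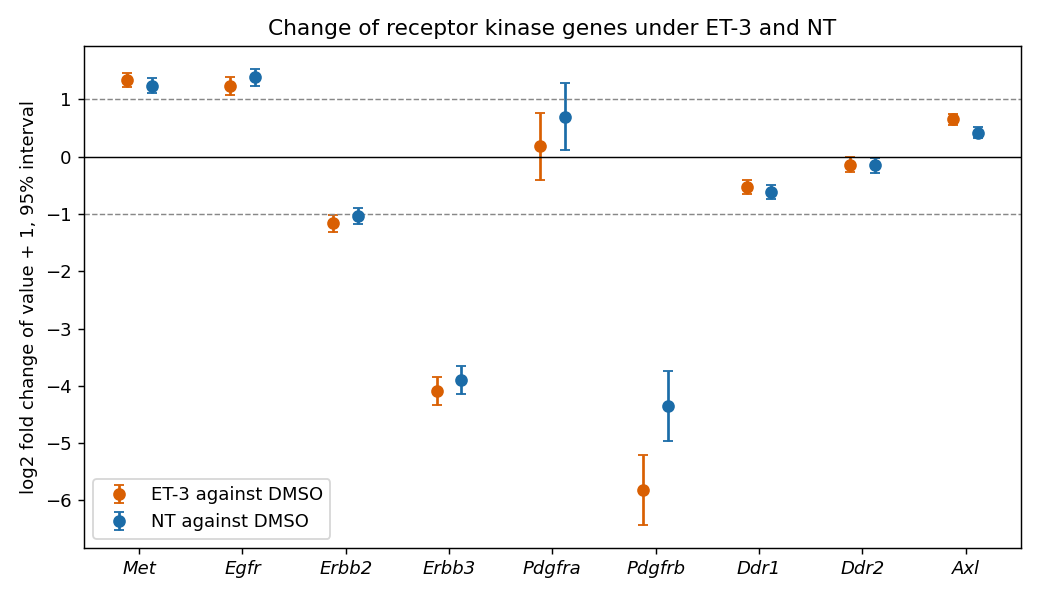
Log2 fold change (of value + 1) of the 9 receptor kinase genes under ET-3 and under NT against DMSO, as limma estimates with 95% intervals from 2 libraries per group. Dashed lines mark 2-fold, and Erbb3 (-4.09 and -3.90) and Pdgfrb (-5.82 and -4.35) lie far below the lower line.

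Without the 2-fold requirement, 7 of the 9 receptor genes passed under ET-3, 3 higher and 4 lower, where 63.7% of all tested genes passed (30.6% higher and 33.2% lower). All 9 passed under NT, 4 higher and 5 lower, where 62.2% of all tested genes passed (29.7% higher and 32.5% lower). The libraries of DMSO and ET-3 did not overlap for 8 of the 9 genes and those of DMSO and NT for 9, beside 79.6% and 80.6% of all tested genes.

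Set directly against each other, NT and ET-3 differed little. One of the 9 genes, Pdgfrb, was called, against 0.079% of all tested genes. Pdgfrb was higher in NT than in ET-3 by 1.47 on the log2 scale (SE 0.27, limma adjusted p = 0.0379), which rests on 28 recovered reads against 6, and the call was lost in 12 of 16 alternative analyses, including that with each treated pair counted as 1 sample (limma adjusted p = 0.712). Axl was lower in NT by -0.24 on the log2 scale (95% interval -0.34 to -0.14, limma adjusted p = 0.0381), and passed in 6 of the 16. By adjusted p alone these 2 of the 9 genes passed, against 2.69% of all tested genes, and 19.9% passed an unadjusted p of 0.05. The NT and ET-3 libraries did not overlap for 7 of the 9, beside 49.6% of all tested genes. For the remaining 7 genes the estimates lay between -0.10 and 0.52, with Pdgfra the highest (95% interval -0.07 to 1.10) and with limma adjusted p from 0.246 to 0.920.

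The order of the receptor genes by level changed with treatment (see the plot of levels per length). Levels were compared between genes as value per kilobase of exonic length, summed over all annotated exons of a gene. In DMSO the highest level was that of Ddr1 (352 and 377 per kilobase), followed by Axl (311 and 297), Erbb3 (242 and 252), Ddr2 (213 and 186), Erbb2 (141 and 154), Met (119 and 106), Pdgfrb (41.4 and 50.7), Egfr (16.1 and 14.5) and Pdgfra (2.00 and 2.99). Under ET-3 the order was Axl (490 and 468), Met (291 and 283), Ddr1 (255 and 252), Ddr2 (184 and 178), Erbb2 (63.5 and 67.9), Egfr (36.2 and 35.8), Erbb3 (16.3 and 12.6), Pdgfra (2.59 and 2.99) and Pdgfrb (0.730 and 0.548). The NT libraries gave the same order as ET-3, with Axl at 410 and 402, Met at 271 and 263, and Ddr1 at 248 and 227. No neighbours in these orders overlapped between libraries of a group. As a share of the summed level of the 9 genes, Met went from 8.30% and 7.39% in DMSO to 21.7% in both ET-3 libraries and to 21.9% and 21.7% in NT. Axl went from 21.6% and 20.6% to 36.6% and 35.9% in ET-3 and 33.1% and 33.3% in NT, and Erbb3 from 16.9% and 17.5% to between 0.971% and 1.4%. The summed level itself was 1438 and 1441 in DMSO, 1339 and 1301 in ET-3, and 1239 and 1208 in NT.

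**Figure D3:**
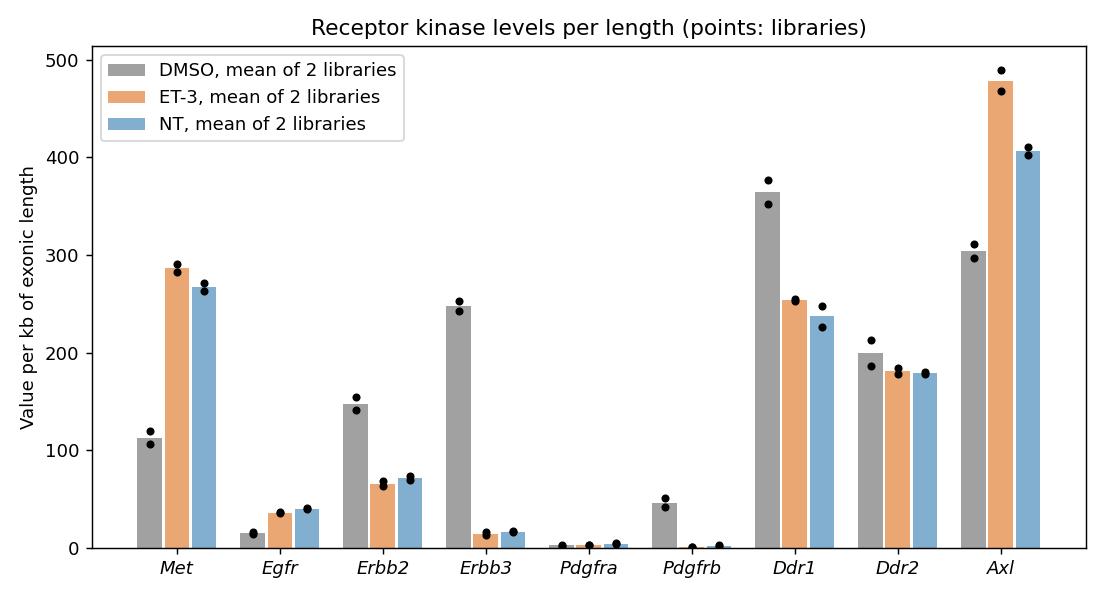
Level of the 9 receptor kinase genes as deposited value per kilobase of exonic length, with bars for the mean of the 2 libraries of a group and points for the libraries. Ddr1 is the highest in DMSO and Axl in both treated groups, and Erbb3 drops from the third place to below Egfr.

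Promoter windows of 250 bases before the annotated start, from RefSeq on GRCm38.p6, were examined for 7 of the 9 receptor genes. No window of Erbb3 or Pdgfrb was examined, and whether RefSeq holds one was not tested. The windows of Met, Egfr and Erbb2, the called genes among the 7, and of Axl are shown. They lie at chr6:17463707-17463956 (plus strand) for Met, chr11:16751953-16752202 (plus) for Egfr, chr7:25788734-25788983 (minus) for Axl and chr11:98412234-98412483 (plus) for Erbb2. The RefSeq starts of Met, Axl and Erbb2 differ from the gene coordinates given above, whereas that of Egfr does not. The Met and Erbb2 windows run past the gene starts given there. Capitals mark exact matches on either strand to 6 motifs, the E-boxes CAGCTG and CAGGTG, the AP-1 site TGACTCA, the TEAD site GGAATG, the GC box GGGCGG and the TATA box TATAAA.
Met: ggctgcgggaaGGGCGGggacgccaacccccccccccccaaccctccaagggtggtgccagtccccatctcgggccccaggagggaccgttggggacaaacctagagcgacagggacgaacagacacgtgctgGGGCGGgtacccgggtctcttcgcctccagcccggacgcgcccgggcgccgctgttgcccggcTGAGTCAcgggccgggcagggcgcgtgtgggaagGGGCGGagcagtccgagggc
Egfr: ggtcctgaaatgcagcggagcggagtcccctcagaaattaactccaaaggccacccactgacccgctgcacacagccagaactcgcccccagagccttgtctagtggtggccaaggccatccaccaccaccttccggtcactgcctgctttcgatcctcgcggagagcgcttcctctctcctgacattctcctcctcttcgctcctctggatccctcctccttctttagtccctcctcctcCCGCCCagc
Axl: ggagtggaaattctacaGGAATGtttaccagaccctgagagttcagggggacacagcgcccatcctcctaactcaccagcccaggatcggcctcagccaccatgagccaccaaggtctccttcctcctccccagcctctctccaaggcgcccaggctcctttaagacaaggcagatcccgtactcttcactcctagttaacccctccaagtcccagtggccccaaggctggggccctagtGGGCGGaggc
Erbb2: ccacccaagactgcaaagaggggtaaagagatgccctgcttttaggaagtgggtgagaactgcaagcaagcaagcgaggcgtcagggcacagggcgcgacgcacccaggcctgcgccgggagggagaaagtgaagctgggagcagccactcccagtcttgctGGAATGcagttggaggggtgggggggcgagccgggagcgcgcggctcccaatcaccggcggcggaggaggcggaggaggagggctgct
The Met window holds 3 GC boxes and 1 AP-1 site, the Egfr window 1 GC box, the Axl window 1 GC box and 1 TEAD site, and the Erbb2 window 1 TEAD site. Of 32851 promoter windows of the same length, 32.7% hold a GC box, 12.6% a TEAD site and 4.46% an AP-1 site. The 2 E-boxes and the TATA box, found in 13%, 17.2% and 12.4% of all windows, are not spelled in these 4. Ddr1, which also fell, has 4 annotated starts, and its windows, not printed, hold 1 CAGCTG, 1 CAGGTG, 1 AP-1 site and 5 GC boxes in all. The Pdgfra window holds none of the 6 motifs, and the Ddr2 window 1 TATA box. Like some Ddr1 windows, the Ddr2 window lies inside the gene span given above. The 4 printed windows are rich in G and C, at 74.0% for Met, 60.8% for Egfr, 60.0% for Axl and 66.0% for Erbb2, where the median of all windows is 52.4%. The Ddr2 window lies below that median, at 37.6%.

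The ligands of these receptors and the proteins that activate them moved both ways (see the plot of ligand values). Of 24 listed genes, 22 have a row and 18 were tested. Under ET-3, 5 were called higher and 7 lower, and under NT 5 higher and 6 lower, where 21.5% and 20.5% of all tested genes were called. The median log2 fold changes were -0.13 and -0.25, and -0.01 and -0.01 over all tested genes. Hgf, the MET ligand, was listed at 7 and 0 in DMSO, 1 and 1 in ET-3, and 1 and 0 in NT, too low to be tested. Spint1, an inhibitor of the proteases that activate HGF, rose from 2 and 2 to 12 and 17 in ET-3 and 16 and 17 in NT (log2 fold changes 2.35 and 2.54, limma adjusted p = 0.000232 and 0.000140).

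Several EGFR ligands rose beside their receptor. Tgfa went from 4 and 5 to 32 and 20 in ET-3 and 21 and 37 in NT (log2 fold changes 2.26 and 2.4, limma adjusted p = 0.000391 and 0.000278). Areg went from 32 and 32 to 80 and 83 in ET-3 and 78 and 87 in NT. Hbegf rose by less than 2-fold, from 204 and 217 to 292 and 298 and to 278 and 273. Against this, Epgn fell, from 10 and 8 to between 2 and 4, near a floor of 3 reads. Its means were 9.0 in DMSO, 3.5 in ET-3 and 3.0 in NT, so only DMSO carried it past the filter at a mean of 5. Egf, at 26 and 42 in DMSO, 15 and 13 in ET-3, and 15 and 18 in NT, was called lower under ET-3. The neuregulin gene Nrg1, whose product binds ERBB3, fell with its receptor, from 100 and 40 to 8 and 9 in ET-3 and 13 and 5 in NT (log2 fold changes -2.76 and -2.81, limma adjusted p = 0.000664 and 0.000623). The 2 control values of Nrg1 lie far apart, but both lie above every treated library.

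Of the PDGF genes, Pdgfb, Pdgfc and Pdgfd fell and Pdgfa rose. Pdgfc went from 525 and 551 to 101 and 99 in ET-3 and 123 and 134 in NT (log2 fold changes -2.42 and -2.06, limma adjusted p = 8.01e-09 and 2.47e-08). Pdgfb went from 252 and 252 to 61 and 80 and to 61 and 73, and Pdgfd from 20 and 14 to 0 and 1 and to 3 and 0. Pdgfa, which encodes a ligand of PDGFRA, went from 301 and 289 to 610 and 598 in ET-3 and 515 and 512 in NT, 2-fold or more only in ET-3 (log2 fold changes 1.03 and 0.80). Pdgfa was lower in NT than in ET-3 by -0.23 on the log2 scale (limma adjusted p = 0.0485).

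The KIT ligand gene Kitl had the highest mean rise of the list, from 25 and 25 in DMSO to 148 and 140 in ET-3 and 161 and 188 in NT (log2 fold changes 2.48 and 2.75, limma adjusted p = 1.87e-07 and 9.86e-08). Its receptor gene Kit is the one with no row. The AXL ligand gene Gas6 moved opposite to Axl, from 833 and 873 to 391 and 401 in ET-3 and 449 and 366 in NT (log2 fold changes -1.10 and -1.07, limma adjusted p = 1.73e-06 and 2.32e-06). Pros1, the other TAM ligand gene, stood at 272 and 277, 216 and 241, and 240 and 253, a log2 fold change of -0.27 under ET-3 (limma adjusted p = 0.0116) and -0.16 under NT (limma adjusted p = 0.103).

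**Figure D4:**
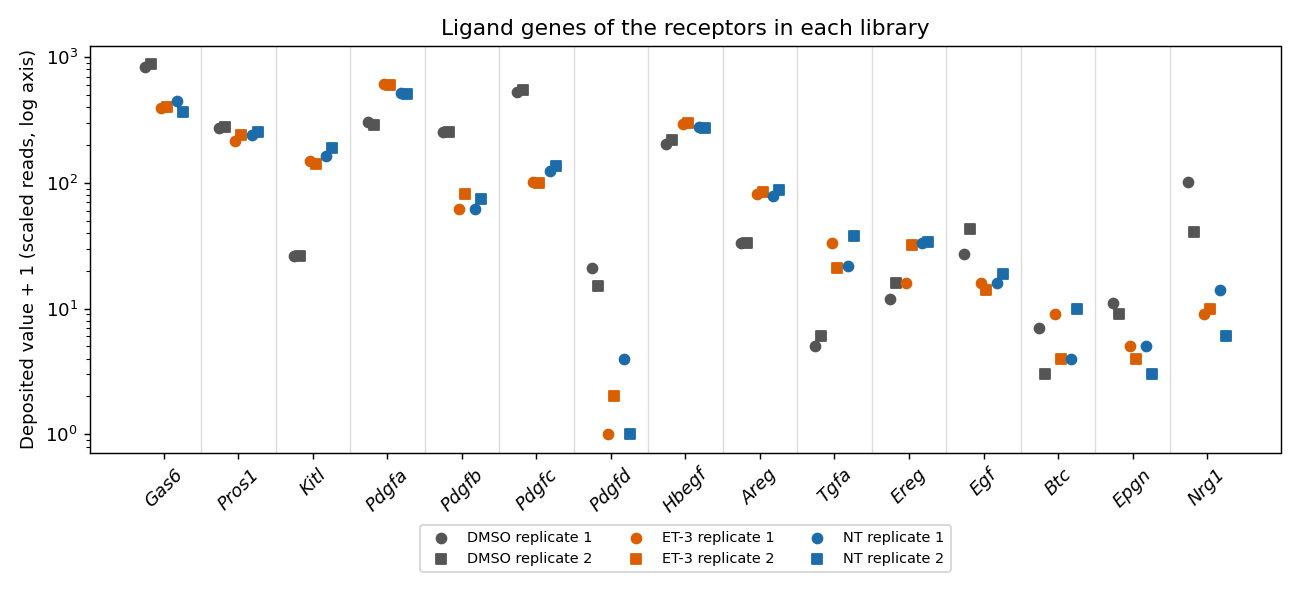
Deposited value + 1 (log axis) of 15 ligand genes of the receptors in each of the 6 libraries, with circles for replicate 1 and squares for replicate 2. Kitl, Tgfa, Areg and Pdgfa lie higher in all 4 treated libraries than in DMSO, and Gas6, Pdgfb, Pdgfc, Pdgfd and Nrg1 lie lower.

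Of 10 collagen genes listed as DDR ligands, 8 were tested, and 3 were called lower under each peptide, where 14.9% and 13.2% of all tested genes were. Col1a1, at 148 and 146 in DMSO, was at 7 and 2 in ET-3 and 8 and 8 in NT. Col1a2 went from 845 and 797 to 86 and 72 and to 110 and 103, and Col5a1 from 1758 and 1795 to 450 and 412 and to 597 and 512. The median log2 fold change of the 8 was -0.76 under ET-3 and -0.62 under NT, beside -0.01 and -0.01 over all tested genes. Col4a1, a basement membrane collagen, rose by less than 2-fold, from 787 and 725 to 991 and 947 and to 987 and 928.

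Among other receptor tyrosine kinases, as among all genes, more were called lower than higher. Of 48 listed genes, 34 have a row and 32 were tested, with 3 called higher and 11 lower under ET-3 and 3 higher and 10 lower under NT. Over all tested genes, 6.62% were higher and 14.9% lower under ET-3, and 7.3% and 13.2% under NT. The list's median log2 fold change was -0.51 and -0.35, beside -0.01 and -0.01 over all tested genes. Ephb3, an ephrin receptor gene, went from 759 and 832 to 37 and 39 in ET-3 and 50 and 40 in NT, and Epha3 from 128 and 126 to 8 and 12 and to 13 and 16. Ros1 stood at 29 and 21 in DMSO and at 0 in all 4 treated libraries, at least 14.6-fold lower in ET-3 and 20.4-fold lower in NT against a floor of 3 reads over the group, and the list medians are the same with Ros1 at these bounds. Tek, the angiopoietin receptor gene, went from 2 and 1 to 68 and 59 in ET-3 and 42 and 70 in NT (log2 fold changes 4.72 and 4.50, limma adjusted p = 1.10e-06 and 1.69e-06). Kdr went from 16 and 6 to 24 and 25 and to 26 and 23. Both are also endothelial markers, and the defining endothelial genes Pecam1 (3 to 15) and Cdh5 (0 to 5) were low in every library. Epha4 went from 62 and 77 to 155 and 134 and to 127 and 131, and its rise reached 2-fold in ET-3 only.

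Shared signal carriers moved less than the receptors (see the plot of the pathway lists). Of 30 genes for adaptors and effectors, such as Grb2 and Sos1, limma called 0 at 2-fold under either peptide, although 17 passed an unadjusted p of 0.05 under ET-3 and 18 under NT, beside 67% and 65.8% of all tested genes. The 2-fold call was met by 21.5% and 20.5% of all tested genes. By adjusted p alone (0.05 or less), ET-3 gave 8 higher and 8 lower and NT gave 6 higher and 11 lower. Over all tested genes, 30.6% passed higher and 33.2% lower under ET-3, and 29.7% and 32.5% under NT. Their medians were -0.01 and -0.07, and those of all tested genes -0.01 and -0.01.

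Of 24 tested genes that limit or remove receptors, 3 were called higher and 2 lower under ET-3 and 2 higher and 2 lower under NT, near the 21.5% and 20.5% called among all tested genes. Lrig1, whose product lowers ERBB and MET receptors, went from 154 and 127 to 555 and 562 in ET-3 and 516 and 545 in NT (log2 fold changes 1.99 and 1.92, limma adjusted p = 3.53e-08 and 5.00e-08). Errfi1, an inhibitor of EGFR, went from 841 and 928 to 1878 and 1767 and to 1494 and 1443, and was lower in NT than in ET-3 by -0.31 on the log2 scale (limma adjusted p = 0.0379). The phosphatase gene Ptprj went from 39 and 29 to 73 and 84 and to 90 and 109. Lrig2 fell from 511 and 497 to 207 and 197 and to 262 and 218, and the adaptor gene Grb14 from 28 and 40 to between 6 and 12.

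Of 13 genes widely used as readouts of ERK signalling, 4 were called higher and 2 lower under ET-3 and 3 higher and 2 lower under NT, beside 6.62% higher and 14.9% lower of all tested genes under ET-3 and 7.3% and 13.2% under NT. Their median log2 fold changes were 0.64 and 0.43, where those of all tested genes were -0.01 and -0.01. The ERK phosphatase gene Dusp5 went from 234 and 206 to 668 and 633 in ET-3 and 585 and 576 in NT, Dusp4 from 397 and 386 to 940 and 922 and to 880 and 864, and the transcription factor gene Etv4 from 190 and 187 to 531 and 506 and to 534 and 533. Etv1, of the same family as Etv4, fell from 129 and 139 to between 45 and 49. Spry1, an inhibitor of receptor kinase signalling, fell from 269 and 292 to 119 and 119 in ET-3 and 120 and 137 in NT.

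**Figure D5:**
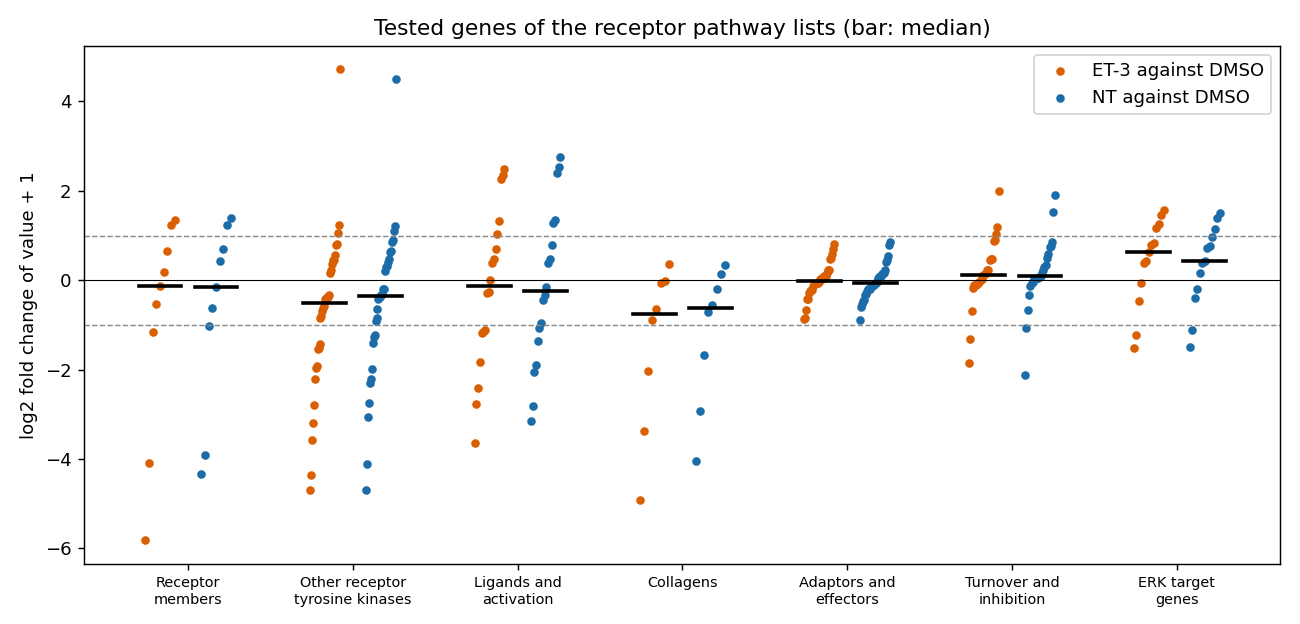
Log2 fold change (of value + 1) under ET-3 and under NT against DMSO of every tested gene of 7 groups, the 9 receptor members and 6 pathway lists, with 1 point per gene and a black bar at the median. Adaptors and effectors all lie inside the dashed 2-fold lines, while other receptor tyrosine kinases spread widely, with Ephb3 at -4.35 and Tek at 4.72 under ET-3.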

How the data were processed

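RNA of 6 libraries of cultured MuSCs was sequenced. The submitters' processing notes name FastQC, Trimmomatic 0.38, STAR 2.7.7a, featureCounts 1.6.5, DESeq2 1.30.0 and the genome mm10. The paper's methods name other versions, and its library kit (stranded) differs from that in the labels (SMART-Seq HT), so whether strand was used in counting is not settled, and reads of overlapping antisense genes may not be told apart. The design text speaks of triplicates, and 2 libraries per group are analysed here.

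The deposited table holds 1 signal value per gene and library, which the authors made by scaling each library's read counts with a factor of its own and rounding. This was found from the values. In the second DMSO and both ET-3 libraries, 51, 64 and 34 of 399 whole numbers examined can come from no read count, and 0 genes lay at them. The fitted factors of all libraries, from 0.781 to 1.19, gave the recovered reads, which in libraries with a factor under 1 are estimates. Because the values are scaled, count tests planned with edgeR and DESeq2 were not run.

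Values were tested as log2(value + 1), which understates the change of low genes, with limma 3.58.1 in R 4.3.3 (lmFit, contrasts, eBayes with trend) in 1 fit of all 6 libraries. The filter kept the 13921 genes whose mean value reached 5 and dropped 5022. Benjamini-Hochberg adjustment ran over these genes, and genes were called at 2-fold or more with an adjusted p no higher than 0.05. Rose and fell mean an adjusted p of at most 0.05. Simulated data of 13897 tested genes were drawn from the mean values and totals of all 6 libraries. Their spread was assumed, not estimated from these data, and 200 genes were changed in ET-3. Of those changed by a log2 fold of 1.5, 89.8% were called, and of those changed by 2, 92.4%, with 7 false calls. Far fewer genes were changed there than were called in the real data. Alternatives were other filters, pseudocounts, scalings, voom weights on the recovered reads, a replicate block, 2-group fits, averaged treated pairs and leaving out each library.

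Gene coordinates and exonic lengths came from GENCODE M21 (GRCm38), which matched 18920 of 18943 genes and gave the coordinates of all 9 receptor genes as the table does. The members and gene lists were chosen with earlier results of these data known. All members are named, and from each list the ligands and relatives of the members and up to 3 called genes in each direction with the largest mean change. Areg, Epgn, Egf, Col4a1, Ngfr, Cnp, Vwf and the genes named only as examples were added after their values were seen.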

Additional observations from a re-analysis of the deposited data

Results flagged for a closer look

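Pdgfrb and Axl differed between the peptides when NT was tested against ET-3 directly. For Pdgfrb, with 13 and 10 in NT and 4 and 3 in ET-3, the log2 difference was 1.47 (NT over ET-3, limma adjusted p = 0.0379, range over 16 alternatives 0.0131 to 0.712). Its ratio in recovered reads was 3.342 (95% interval 1.358 to 9.871, counting error only). For Axl, with 2066 and 2025 in NT and 2465 and 2354 in ET-3, it was -0.24 (limma adjusted p = 0.0381, range 0.00208 to 0.712).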

How the results depend on the processing

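Of 459 single-gene values under alternative settings, 434 kept their direction and side of the threshold, 15 lost the call, 7 gained one because the 2-fold requirement was dropped, and 3 changed sign. Those 3 passed no test with either sign. Pdgfra under ET-3 went from 0.18 to -0.10 without the first DMSO library (0.46 without the second), and Ddr2 in NT against ET-3 went from -0.02 to 0.0072 with libraries scaled to their totals and to 0.0065 without the first ET-3 library (-0.0399 without the second). Of the 15 losses, 12 were Pdgfrb in NT against ET-3 and 3 were Erbb2 under NT. The count of receptor genes called stayed at 5 under ET-3 in every setting that kept the 2-fold requirement, and was 4 or 5 under NT, 4 with libraries scaled to their totals and in the analyses without the second DMSO or the first NT library. With no fold requirement 9 receptor genes passed under NT, and over all genes 8873 passed under ET-3 and 8659 under NT in place of 2991 and 2855. NT against ET-3 was the fragile comparison. Its 11 called genes became 7 with a pseudocount of 5, 375 with no fold requirement, and 0 with no filter, with a replicate block, in a fit of the 2 groups alone, with averaged treated pairs and in each analysis without 1 library (lowest 0, highest 0), although 2765 genes passed an unadjusted p of 0.05 in limma. Its 1 receptor gene became 2 with no fold requirement and 0 with no filter, a pseudocount of 5, voom weights, the replicate block, the 2-group fit, averaged pairs and each analysis without 1 library. Correlations of same-numbered deviations were -0.008, -0.070 and -0.022, which cannot show whether same-numbered libraries shared a batch, animal or culture. The replicate block left 2985 and 2848 genes called under ET-3 and NT. Scaling to library totals moved the median of all genes to 0.08 and 0.10 on the log2 scale, and to 0.04 and 0.02 with upper quartiles. The planned count tests were not run. The cause of these changes was not tested. Depth limits Pdgfrb in the treated libraries and Pdgfra.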

Other observations

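The profiles of genes over the 6 libraries were set beside those of the 3 receptor genes with the largest mean change, among 10205 genes whose mean value reached 50. Likeness was the root mean square difference of log2(value + 1), each gene centred on its own mean. Nearest to Erbb3 were Pgm5 (0.0763), Dbndd1 (0.136) and Adamts5 (0.159). Pgm5, a gene of muscle attachment sites, stood at 617 and 685 in DMSO, 44 and 37 in ET-3, and 46 and 48 in NT. Nearest to Pdgfrb were Prkg1 (0.330), a cGMP-dependent kinase gene at 267 and 212, 5 and 3, and 8 and 8, then Cdkn1c (0.341), a cell cycle inhibitor gene, and Atp2a1 (0.384), the calcium pump gene of fast muscle, at 2204 and 2502, 55 and 49, and 89 and 66. Nearest to Egfr were Asap2 (0.0417), Sned1 (0.0471) and BC055324 (0.0484), with Asap2 at 137 and 131, 326 and 331, and 363 and 378.

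Other cell type lists stood as follows. The listed genes of the stem and precursor state summed to 7980 to 8758 in DMSO, 7576 to 7829 in ET-3 and 6702 to 6939 in NT. Of the 8 tested genes of that list, 3 passed the adjusted p higher and 3 lower in ET-3. In NT, 3 passed higher and 5 lower. Among all tested genes, 30.6% passed higher and 33.2% lower in ET-3, and 29.7% and 32.5% in NT. The list's median log2 fold changes were 0.01 in ET-3 and -0.27 in NT, beside -0.01 and -0.01 over all tested genes. Endothelial genes summed to 64 in both DMSO libraries, 119 to 124 in ET-3 and 98 to 130 in NT. Most of the treated sums came from Tek and Kdr, which are among the receptor kinases above, whereas Vwf fell, from 38 and 52 to 14 and 26 in ET-3 and 13 and 21 in NT. Macrophage genes, of which 4 of 8 have a row, summed to 27 to 36, 37 to 70 and 40 to 45. Of 8 mast cell genes only Gata2 has a row, at 410 and 473, 574 and 559, and 553 and 582. Of 8 epithelial genes 5 have a row, summing to 279 to 288, 533 to 550 and 447 to 490, with Krt8 at 0 to 3 in every library.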
